A study of Mus musculus with 12 samples.

Results

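The genes described here are 8 genes of the bone morphogenetic protein (BMP) response: Id1, Id2, Id3 and Id4, the inhibitory SMAD genes Smad6 and Smad7, the receptor-regulated SMAD gene Smad9 and the pseudoreceptor gene Bambi. They were chosen by name, as known BMP response genes, with no threshold on their values, but with earlier results of these data known. Their symbols were matched to the gene identifiers of the count table. All 8 were among the 49585 genes of that table, and all 8 were among the 16318 genes with enough counts to be tested.

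RNA was sequenced from cultures of calvarial osteoblasts, the bone-forming cells released by collagenase from the skull bones of newborn C57BL/6J mice, aged 3 to 5 days. The groups were Day 3 Bcl3-/- (cells of Bcl3 knockout pups after 3 days of osteogenic induction), Day 3 WT (cells of wild-type pups at the same time), Day 1 Bcl3-/- and Day 1 WT (the same genotypes after 1 day), with 3 libraries each. In all 4 groups osteogenesis was induced with 50 µg/ml ascorbic acid and 2 mM β-glycerophosphate, and the stated treatment names no added BMP. The libraries came from 6 cultures, 3 per genotype, each of which gave a library on both days, and each culture held the cells of up to 3 calvariae by the labels, and of 3 by the stated methods. The comparison addresses how the loss of Bcl3, a nuclear IκB-family regulator of NF-κB, changes the osteoblast program over time.

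BMPs are secreted ligands that bring type I and type II receptor kinases together, and the type I receptor then phosphorylates the receptor-regulated SMAD proteins encoded by Smad1, Smad5 and Smad9, which enter the nucleus with SMAD4. Id genes are classic direct targets of that complex, and the ID proteins they encode are helix-loop-helix proteins without a DNA-binding region that hold E proteins and other basic helix-loop-helix factors away from DNA. Smad6, Smad7 and Bambi are induced by the same signal and act against it, Smad6 mainly on BMP signals, Smad7 on both BMP and TGF-β signals by blocking the type I receptors and recruiting ubiquitin ligases, and Bambi at the membrane as a receptor without a kinase. In bone, BMP signaling drives osteoblast differentiation, and ID proteins are generally linked to the proliferating, less mature osteoblast.

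The promoters of 5 of the 8 genes (Id2, Id3, Id4, Smad6 and Smad9) were found in the RefSeq promoter table, on build GRCm38.p6, as windows of 300 bases from 250 bases before the start of transcription. Those that hold a sequence known to bind SMAD proteins are printed, because SMAD complexes are known to reach target genes through such sequences. Capitals mark GTCTAGAC, the palindromic SMAD-binding element, and GGCGCC, the GC-rich element of the BMP-responsive SMADs. The stretches are Smad6 at chr9:64022040-64022309 on the minus strand, Smad9 at chr3:54755332-54755601 on the plus strand, Id2 at chr12:25096234-25096342 on the minus strand and Id4 at chr13:48260866-48261135 on the plus strand. Each stretch runs from the first base of its window to 20 bases past the RefSeq start or past the first base in the window that lies in a GENCODE exon of the gene, whichever the window meets first. For Smad6, Smad9 and Id4 this is sequence around the RefSeq start. The Id2 stretch precedes the start of the shorter annotated transcripts, but it lies within the Id2 gene, in the first intron of the longest GENCODE transcript, and ends in that transcript's next exon.
Smad6: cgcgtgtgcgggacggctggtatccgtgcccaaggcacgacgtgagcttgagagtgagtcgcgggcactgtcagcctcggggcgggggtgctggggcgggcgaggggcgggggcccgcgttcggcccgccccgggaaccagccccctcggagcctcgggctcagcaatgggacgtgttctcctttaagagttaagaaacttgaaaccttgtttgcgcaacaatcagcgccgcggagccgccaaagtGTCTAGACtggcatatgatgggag
Smad9: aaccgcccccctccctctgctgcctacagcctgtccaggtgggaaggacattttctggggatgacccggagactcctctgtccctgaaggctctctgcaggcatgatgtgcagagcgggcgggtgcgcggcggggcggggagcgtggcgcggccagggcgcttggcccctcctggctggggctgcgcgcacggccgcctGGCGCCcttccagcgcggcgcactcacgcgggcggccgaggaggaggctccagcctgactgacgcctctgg
Id2: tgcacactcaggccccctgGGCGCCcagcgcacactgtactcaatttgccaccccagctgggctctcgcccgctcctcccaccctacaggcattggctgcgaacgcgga
Id4: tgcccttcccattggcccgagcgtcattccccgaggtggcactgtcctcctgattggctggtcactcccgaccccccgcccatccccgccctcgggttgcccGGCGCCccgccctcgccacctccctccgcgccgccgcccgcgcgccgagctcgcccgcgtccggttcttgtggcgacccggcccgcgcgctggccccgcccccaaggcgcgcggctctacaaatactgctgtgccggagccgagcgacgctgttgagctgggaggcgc

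GTCTAGAC lay at the start of Smad6, with its first base at -4 bases from the start, and 0.213% of the 32851 mouse promoters of the same length hold it. GGCGCC lay at -51 bases in Smad9, at -148 bases in Id4 and at -231 bases in Id2, and 11.9% of all promoters hold it. Both strands were searched, both elements read the same on either strand, and no match overlapped another. Of the other sequences searched, the SMAD half-site CAGACA (21.0% of all promoters), TATAAA (13.6%) and the κB consensus (8.46%) had no match in any of the 5 windows. The E-box CANNTG (72.3%) had a match in Smad6, Smad9 and Id2, and CCAAT (37.4%) in Id2, Id4 and Smad6. The window of Id3 had none of these sequences. A match describes the letters and not binding. The Id3 window, like that of Id2, begins inside the gene as GENCODE annotates it. It begins within an exon and is not printed.

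The deposited counts summed to between 20009732 and 41953891 per library, with a median of 31792039. Bcl3 itself was counted at 8.31 to 10.2 CPM (counts scaled to library size after TMM normalization) in Day 3 Bcl3-/- libraries and 12.8 to 15.9 CPM in Day 3 WT libraries, but at 17.5 to 19.7 CPM in Day 1 Bcl3-/- libraries and 17.8 to 21.8 CPM in Day 1 WT libraries. The counts of the targeted gene therefore did not separate the genotypes on day 1, and the genotype of each library below is that of its label. Osteoblast markers summed to 70802 to 77918 CPM in Day 3 Bcl3-/-, 71651 to 76841 CPM in Day 3 WT, 59132 to 62205 CPM in Day 1 Bcl3-/- and 34120 to 50191 CPM in Day 1 WT libraries. The collagen genes Col1a1 and Col1a2 made up most of each sum, at 46090 and 26799 CPM on average in Day 3 Bcl3-/- libraries. There Spp1 averaged 1361 CPM, whereas Bglap (3.15 CPM) and Dmp1 (1.02 CPM) were low. Genes were compared with edgeR's quasi-likelihood test over all 12 libraries, and a gene was called changed at an adjusted p (Benjamini-Hochberg, over the 16318 genes) under 0.05. Of the 12 osteoblast markers, 3 were called higher and 1 lower in Day 3 Bcl3-/- than in Day 3 WT libraries, against 4.78% and 5.6% of all genes. The log2 fold changes of Alpl and Spp1 were 1.77 and -1.32 there. On day 1, 4 were called higher, among them Alpl (1.22) and Bglap2 (2.15), and 1, Sp7 (-0.92), lower, against 9.03% and 6.26%. In bulk RNA, fewer cells of a type and less RNA per cell cannot be told apart.

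Per unit of transcript length, in the deposited FPKM (fragments scaled to transcript length and to the depth of the library), the order of levels was nearly the same in the 4 groups. Id3 was the highest member, with 281.8 ± 42.2 FPKM in Day 3 Bcl3-/-, 209.8 ± 30.9 in Day 3 WT, 210.9 ± 10.7 in Day 1 Bcl3-/- and 254.5 ± 46.0 in Day 1 WT libraries (SD, n = 3 each). Id2 followed at 109.4 ± 18.0, 76.1 ± 10.7, 66.6 ± 4.92 and 72.3 ± 13.2 FPKM in the same order of groups, then Id1 at 48.9 ± 7.29, 30.3 ± 4.41, 36.7 ± 3.79 and 54.5 ± 12.1 FPKM. The lowest was Smad9, at 0.743 ± 0.118, 0.543 ± 0.0705, 0.784 ± 0.131 and 1.28 ± 0.158 FPKM, below Bambi at between 2.82 and 6.38 FPKM over the 12 libraries. Smad6, Id4 and Smad7 lay between, and their order changed: Id4 (20.2 ± 4.96 FPKM) stood above Smad6 (12.3 ± 0.583 FPKM) in Day 3 Bcl3-/- libraries, whereas Smad6 (26.7 ± 7.56 FPKM) stood above Id4 (11.6 ± 2.07 FPKM) in Day 1 WT libraries. Neighbors in this order whose libraries overlapped were Smad6 and Id4 in Day 3 WT, and Id2 and Id1, Smad6 and Smad7, and Smad7 and Id4 in Day 1 WT.

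**Figure D1:**
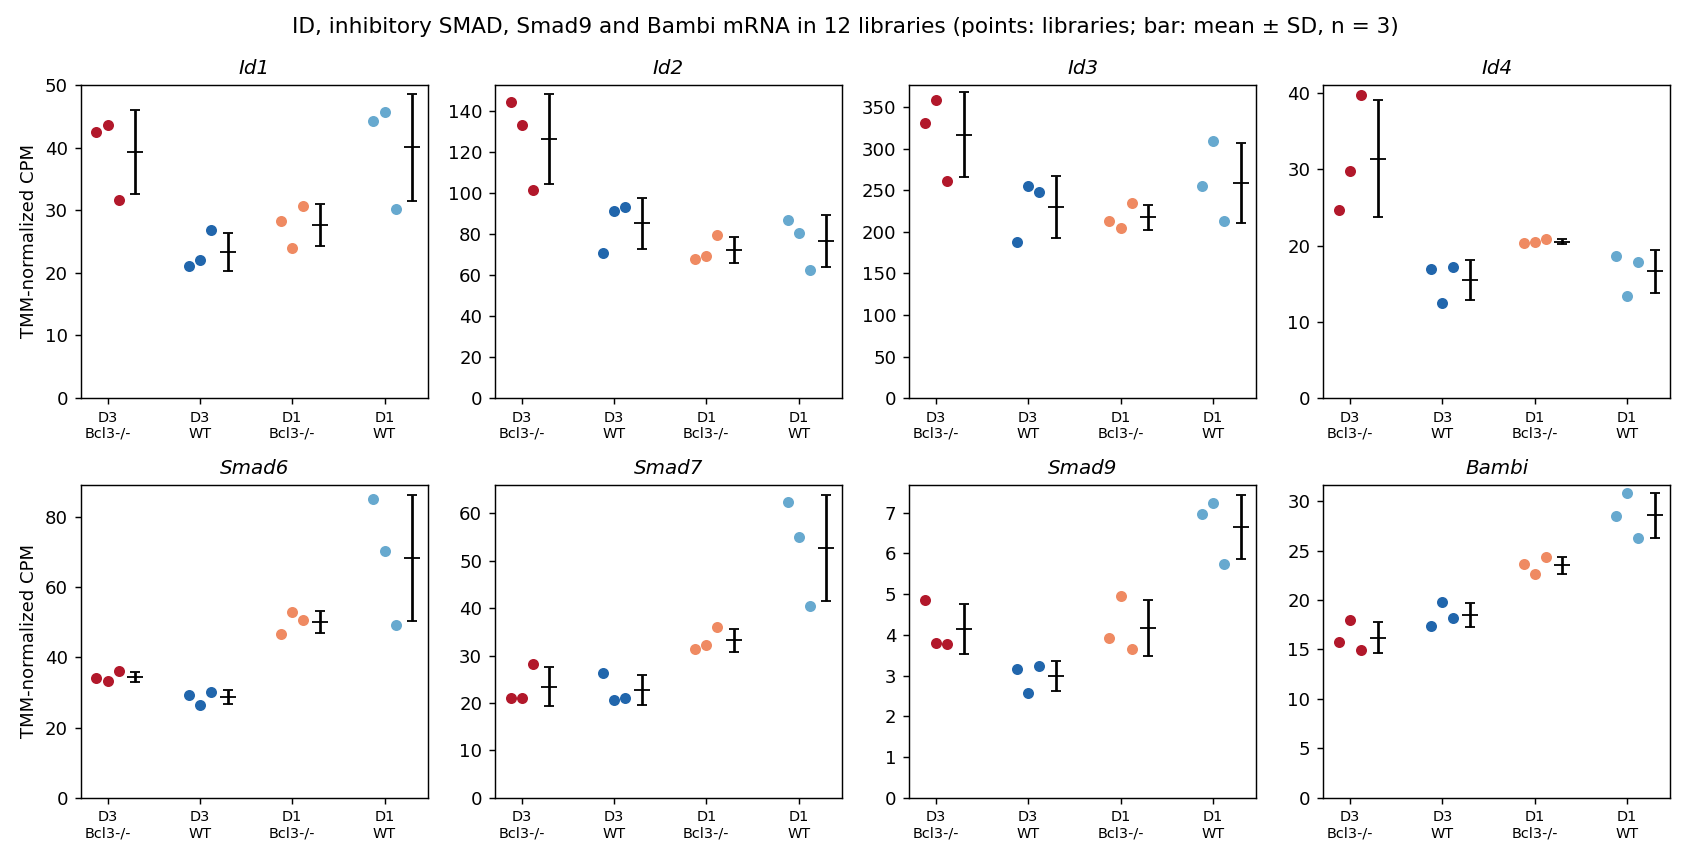
TMM-normalized CPM of the 8 genes (y axis, from 0) in each of the 12 libraries (points), by group on the x axis (D3, day 3; D1, day 1), with the mean and SD of 3 libraries beside them. The 3 Day 3 Bcl3-/- libraries lie above the 3 Day 3 WT libraries for all 4 Id genes, and the Day 1 WT libraries are the highest group for Smad6, Smad7, Smad9 and Bambi by their means.

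On day 3, Id4 (2.01-fold), Id1 (1.69-fold) and Id2 (1.48-fold) were higher in Bcl3-/- osteoblasts than in WT controls, while Id3, at 1.38-fold, did not pass the test. Over all genes, 4.78% were called higher in this comparison, against 3 of the 8 members called higher and 0 called lower. The groups did not overlap for 6 of the 8 members, against 28.7% of all genes tested. The median log2 fold change of the 8 was 0.47, against a median of -0.00 over all genes. Without Day 3 WT replicate 1, Day 3 WT replicate 2 or Day 3 Bcl3-/- replicate 2, only Id4 was called (1 of the 8).

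Id1 encodes the ID protein most often used as a readout of BMP-SMAD activity, and lies on chromosome 2 at 152736251-152737410 (GRCm38, plus strand; ENSMUSG00000042745). It was measured at 42.5, 43.7 and 31.6 CPM in Day 3 Bcl3-/- libraries, against 21.0, 22.1 and 26.8 CPM in Day 3 WT libraries. The groups did not overlap, and the log2 fold change was 0.75 ± 0.17 (SE, adjusted p = 0.017). On day 1 the order was the other way round, with 28.3, 24.0 and 30.7 CPM in Bcl3-/- libraries and 44.3, 45.6 and 30.3 CPM in WT libraries. There the third WT library lay within the Bcl3-/- range, and the log2 fold change of -0.53 ± 0.17 (SE, adjusted p = 0.0539) did not pass the test. The day 3 call was lost without Day 3 WT replicate 1 or 2 or Day 3 Bcl3-/- replicate 2, with log2 fold changes of 0.67 to 0.72 and adjusted p of up to 0.0782. It was also lost in the limma fits on FPKM without an FPKM filter. The day 1 difference passed without Day 1 WT replicate 3 (-0.70) or Day 3 Bcl3-/- replicate 3 (-0.53) and with DESeq2 (-0.54).

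Over time, Id1 moved in opposite directions in the 2 genotypes. It rose in Bcl3-/- cultures, with a log2 fold change of day 3 over day 1 of 0.51 ± 0.17 (SE, adjusted p = 0.0379), and fell in WT cultures, at -0.78 ± 0.17 (SE, adjusted p = 0.0035). Each culture gives the same direction within its genotype: the change in log2 CPM was 0.58, 0.86 and 0.04 in the 3 Bcl3-/- cultures, against -1.07, -1.04 and -0.18 in the 3 WT cultures. The third culture of each genotype changed least. The difference between the 2 changes was 1.29 ± 0.24 (SE, adjusted p = 0.0335) on the log2 scale. With the cultures as a block, the Id1 rise in Bcl3-/- cultures (0.50, adjusted p = 0.0762) and the difference between genotypes (1.27, adjusted p = 0.0666) no longer passed, and the rise was also lost without replicate 1 or 2 of either Bcl3-/- group (0.42 to 0.53). Both the rise and the difference were lost in the 3 limma fits on FPKM as well. The call of the difference was lost without any one of 8 libraries, namely Day 1 WT replicates 1 and 2, Day 1 Bcl3-/- replicates 1, 2 and 3, Day 3 WT replicates 1 and 2 and Day 3 Bcl3-/- replicate 2 (adjusted p of 0.0664 to 0.125).

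**Figure D2:**
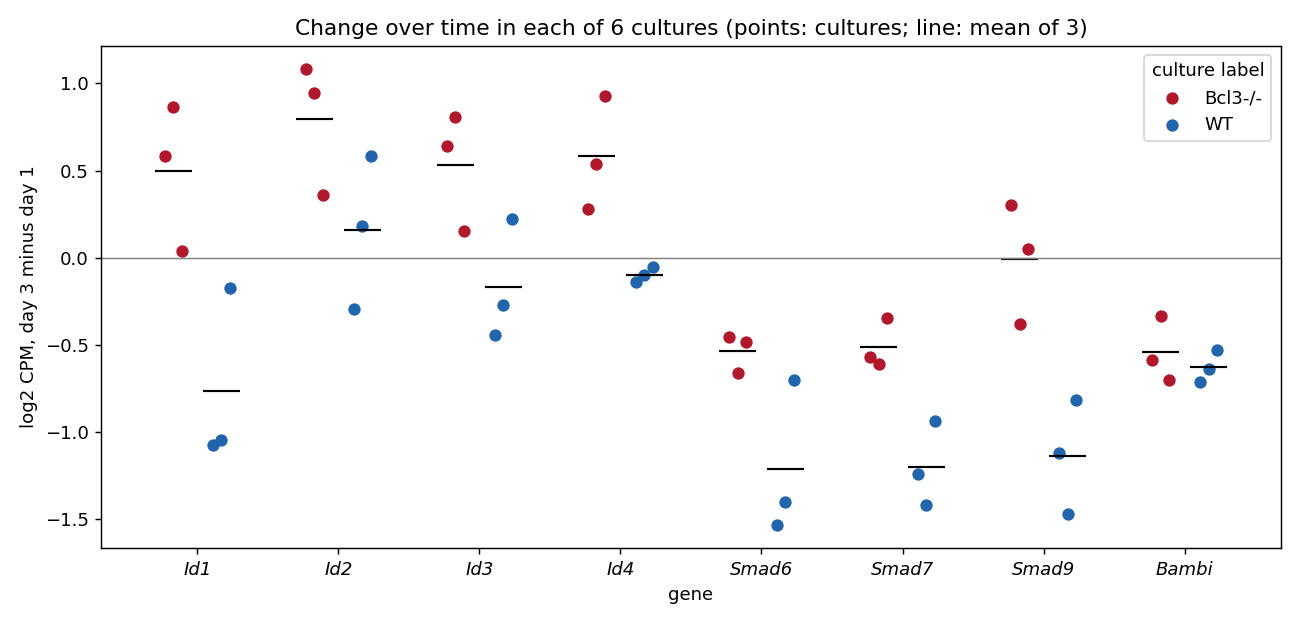
Change in log2 CPM, day 3 minus day 1 (y axis), of each gene (x axis) in each of the 6 cultures (points; Bcl3-/- left of WT), with the mean of 3 cultures as a line. All 3 Bcl3-/- cultures lie above 0 and all 3 WT cultures below 0 for Id1 and Id4, and all 6 cultures lie below 0 for Smad6, Smad7 and Bambi.

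Id2 encodes an ID protein that is abundant in many mesenchymal cells and lies on chromosome 12 at 25093799-25097140 (minus strand; ENSMUSG00000020644). Its levels were 144, 133 and 102 CPM in Day 3 Bcl3-/- libraries, against 70.8, 91.3 and 93.2 CPM in Day 3 WT libraries, with a log2 fold change of 0.57 ± 0.15 (SE, adjusted p = 0.0349). The groups stood apart, although the lowest Bcl3-/- library was close to the highest WT library. On day 1, with 68.0, 69.1 and 79.3 CPM in Bcl3-/- libraries and 86.9, 80.4 and 62.3 CPM in WT libraries, the groups overlapped and the log2 fold change was -0.08 ± 0.15 (SE, adjusted p = 0.778). Id2 rose over time in Bcl3-/- cultures, by 1.08, 0.94 and 0.36 in log2 CPM, whereas the WT cultures differed in sign, at -0.30, 0.18 and 0.58. The fitted changes were 0.81 ± 0.15 (SE, adjusted p = 0.00193) in Bcl3-/- and 0.15 ± 0.15 (SE, adjusted p = 0.465) in WT cultures, and the call in Bcl3-/- cultures held under all 22 alternatives. The day 3 genotype call was lost without replicate 1 or 2 of either day 3 group (0.45 to 0.62), in a fit of the 6 day 3 libraries alone and on FPKM.

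Id3, the most abundant member, lies on chromosome 4 at 136143497-136145755 (plus strand; ENSMUSG00000007872) and is often co-expressed with Id1 in development. It was measured at 332, 359 and 261 CPM in Day 3 Bcl3-/- libraries, against 188, 256 and 248 CPM in Day 3 WT libraries. The groups did not overlap, but the log2 fold change of 0.46 ± 0.15 (SE, adjusted p = 0.079) did not pass the test; it passed without Day 3 Bcl3-/- replicate 3 (0.58), without a count filter (0.44) and with DESeq2 (adjusted p = 0.0329). On day 1 the groups overlapped, at 213, 205 and 234 CPM in Bcl3-/- libraries and 255, 309 and 213 CPM in WT libraries, with a log2 fold change of -0.25 ± 0.15 (SE, adjusted p = 0.318). Id3 rose over time in Bcl3-/- cultures by 0.55 ± 0.16 (SE, adjusted p = 0.0176), higher on day 3 in 3 of 3 cultures, while the change in WT cultures was -0.17 ± 0.15 (SE, adjusted p = 0.428), lower in 2 of 3. The rise was lost without Day 1 Bcl3-/- replicate 1 or 2 or Day 3 Bcl3-/- replicate 2, at 0.45 to 0.54, and in the 3 limma fits on FPKM.

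Id4 differs from the other 3 Id genes in that its protein is linked to the promotion of osteoblast differentiation in mouse, and it lies on chromosome 13 at 48261228-48266026 (plus strand; ENSMUSG00000021379). Its level was 24.6, 29.8 and 39.7 CPM in Day 3 Bcl3-/- libraries, against 16.9, 12.5 and 17.2 CPM in Day 3 WT libraries. Every Day 3 Bcl3-/- library was above every library of the other groups, and the log2 fold change of 1.01 ± 0.18 (SE, adjusted p = 0.00524) was the largest of the 8 members on day 3 and passed under all 23 alternatives. On day 1, Id4 was measured at 20.3, 20.5 and 20.8 CPM in Bcl3-/- libraries and 18.6, 13.4 and 17.9 CPM in WT libraries. Here too the groups did not overlap, but the log2 fold change of 0.31 ± 0.18 (SE, adjusted p = 0.284) did not pass. Id4 rose over time in Bcl3-/- cultures, by 0.28, 0.54 and 0.93 in log2 CPM and a fitted 0.61 ± 0.18 (SE, adjusted p = 0.0193), against changes of -0.14, -0.10 and -0.06 in WT cultures. The rise was lost without Day 3 Bcl3-/- replicate 3, the highest Id4 library, at 0.41 with an adjusted p of 0.0701. It was also lost in the 3 limma fits on FPKM (adjusted p of up to 0.146). The start of Id4 lies within the span of the antisense gene A330033J07Rik, which averaged 14.6 counts per library, against 408 to 920 counts of Id4. The strand setting of the counting is not given in the sources used here, so reads from the 2 strands cannot be told apart.

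Endothelial cells also express Id genes, and 1 of the endothelial markers, Tek, was called higher in Day 3 Bcl3-/- libraries as well. The summed level of 12 endothelial markers was 27.3 to 31.5 CPM in Day 3 Bcl3-/- libraries, against 14.6 to 19.3 CPM in Day 3 WT libraries, and 16.4 to 19.0 CPM in Day 1 Bcl3-/- libraries, against 12.0 to 12.8 CPM in Day 1 WT libraries. Of the 8 tested, 1 was called higher and 0 lower on day 3, against 4.78% and 5.6% of all genes. Their median log2 fold change on day 3 was 0.66, against -0.00 over all genes. At an unadjusted p under 0.05 there were 4 of the 8, against 26.7% of all genes. Tek, which encodes an angiopoietin receptor, was at 16.2 CPM in Day 3 Bcl3-/- and 6.33 CPM in Day 3 WT libraries and made up much of the sum. The log2 fold changes of the other 7 did not pass. Those of Vwf (1.55), Cdh5 (1.43), Pecam1 (1.01), Egfl7 (0.31) and Esam (0.04) were above 0, and those of Kdr (-0.04) and Erg (-0.08) below. The defining markers Pecam1 and Cdh5 were near 0, with 1.00 and 1.38 CPM in Day 3 Bcl3-/- and 0.494 and 0.504 CPM in Day 3 WT libraries. The part of these cells in the Id levels was not tested.

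On day 1, the members other than Id4 were lower in Bcl3-/- osteoblasts than in WT controls by their fitted values, and Smad7 and Smad9 passed the test, each at 0.63 of the WT level. Over all genes 6.26% were called lower on day 1, against 2 of the 8 members called lower and 0 called higher. The groups did not overlap for 4 of the 8, against 38.3% of all genes tested. The median log2 fold change of the members was -0.36, against 0.00 over all genes. DESeq2 called 5 of the 8, adding Id1, Smad6 and Bambi, and limma on log2(FPKM + 1) called 0, with 5 of the 8 at an unadjusted p under 0.05 in the edgeR fit, against 28.7% of all genes. Without Day 1 WT replicate 3, which lay nearest to the Bcl3-/- libraries for Id1, Smad6, Smad7 and Bambi, 5 of the 8 were called, and without Day 1 WT replicate 1 or 2 or Day 1 Bcl3-/- replicate 1, 0 were called. The count was 1 without Day 1 Bcl3-/- replicate 2 or 3, and 4 without Day 3 Bcl3-/- replicate 3.

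**Figure D3:**
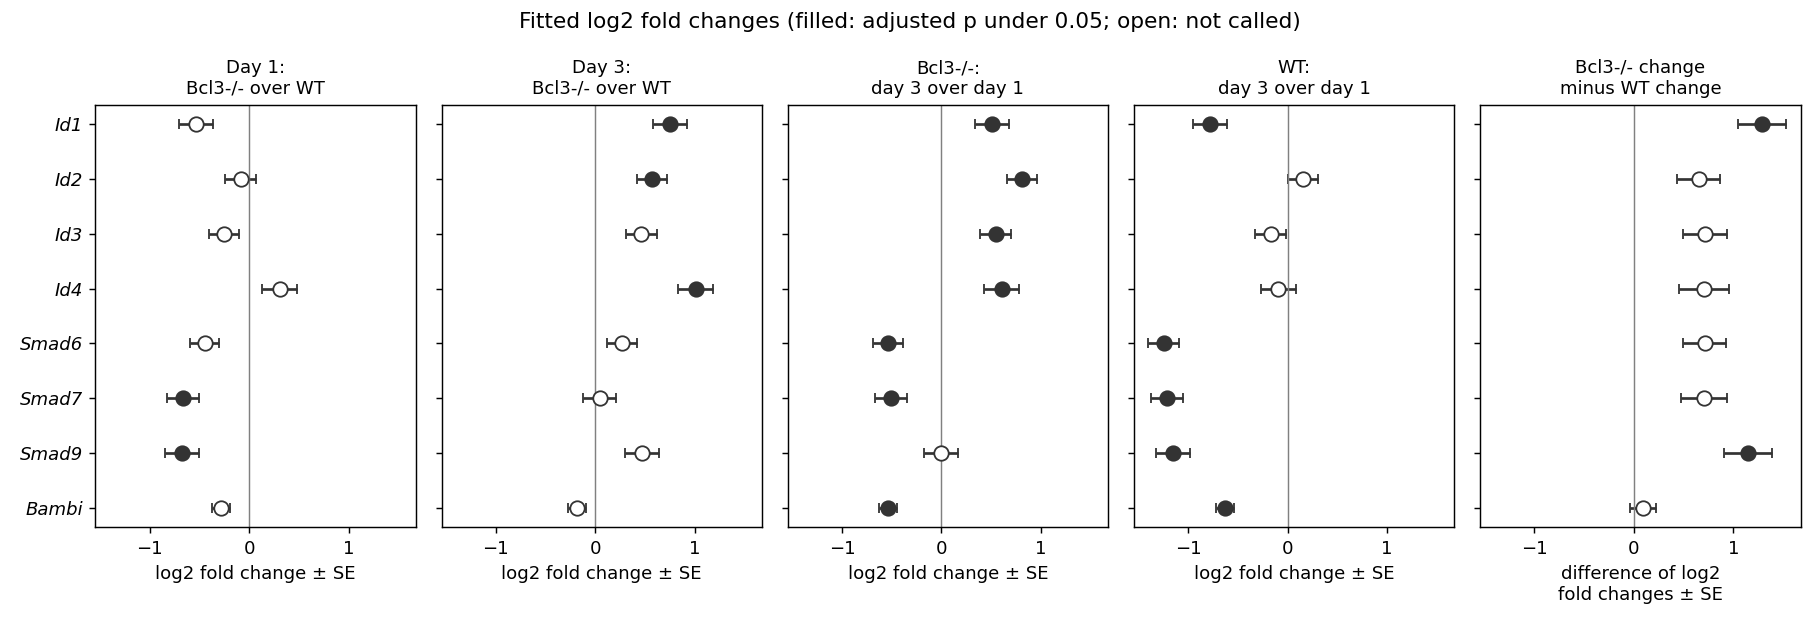
Fitted log2 fold changes with SE (x axis) of the 8 genes (y axis) in the comparisons of genotype on each day, of time in each genotype, and of the 2 changes over time (Bcl3-/- minus WT), with filled points for an adjusted p under 0.05. The points for Smad7 and Smad9 are filled and below 0 on day 1, those for Id1, Id2 and Id4 are filled and above 0 on day 3, and all 8 lie above 0 in the last panel.

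Smad7 encodes the inhibitory SMAD that acts on both branches of TGF-β family signaling and lies on chromosome 18 at 75367529-75395935 (plus strand; ENSMUSG00000025880). Its level was 31.5, 32.2 and 35.9 CPM in Day 1 Bcl3-/- libraries, against 62.4, 55.1 and 40.5 CPM in Day 1 WT libraries, and the groups did not overlap. The log2 fold change was -0.66 ± 0.16 (SE, adjusted p = 0.0161). This call was lost without Day 1 WT replicate 1 or 2 or Day 1 Bcl3-/- replicate 1 or 2, at -0.64 to -0.54, and in the 3 limma fits on FPKM. On day 3 the groups overlapped, at 21.1, 21.1 and 28.2 CPM in Bcl3-/- libraries and 26.4, 20.6 and 21.1 CPM in WT libraries, with a log2 fold change of 0.05 ± 0.16 (SE, adjusted p = 0.893) whose sign turned in 3 of the 23 alternatives. Smad7 fell over time in both genotypes and in all 6 cultures, at a fitted -0.51 ± 0.16 (SE, adjusted p = 0.0322) in Bcl3-/- and -1.21 ± 0.16 (SE, adjusted p = 0.000138) in WT cultures. The fall in Bcl3-/- cultures was lost without Day 1 Bcl3-/- replicate 2 or 3 or Day 3 Bcl3-/- replicate 1 or 2, at -0.52 to -0.43. It was also lost in the 3 limma fits on FPKM, whereas the fall in WT cultures held under all 22 alternatives.

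Smad6, the inhibitory SMAD with the strongest preference for BMP receptors, lies on chromosome 9 at 63953076-64022059 (minus strand; ENSMUSG00000036867) and carries the palindromic element printed above at its start. It was measured at 46.7, 52.8 and 50.6 CPM in Day 1 Bcl3-/- libraries and 85.1, 70.4 and 49.3 CPM in Day 1 WT libraries. The third WT library lay within the Bcl3-/- range, and the log2 fold change of -0.45 ± 0.15 (SE, adjusted p = 0.0634) did not pass, but did without that library (-0.63, adjusted p = 0.000852). On day 3 the 3 Bcl3-/- libraries, at 34.05, 33.4 and 36.1 CPM, were above the 3 WT libraries, at 29.3, 26.6 and 30.3 CPM, with a log2 fold change of 0.26 ± 0.15 (SE, adjusted p = 0.292) that did not pass. Smad6 fell over time in both genotypes, at -0.54 ± 0.15 (SE, adjusted p = 0.0166) in Bcl3-/- cultures and -1.25 ± 0.15 (SE, adjusted p = 7.07e-05) in WT cultures. The changes of single cultures were -0.46, -0.66 and -0.49 in log2 CPM for Bcl3-/-, against -1.54, -1.40 and -0.70 for WT, so that 2 of the 3 WT cultures fell further than any other and the third fell little more than the Bcl3-/- cultures. The fall in Bcl3-/- cultures was lost without replicate 2 of either day, at -0.51 and -0.49.

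Smad9 encodes a receptor-regulated SMAD, also called SMAD8, that can dampen the BMP signal and is itself a BMP target, and lies on chromosome 3 at 54755582-54801257 (plus strand; ENSMUSG00000027796). It had only 72 to 318 counts per library. Its level was 3.92, 4.94 and 3.66 CPM in Day 1 Bcl3-/- libraries, against 6.96, 7.24 and 5.75 CPM in Day 1 WT libraries, a log2 fold change of -0.67 ± 0.17 (SE, adjusted p = 0.0181) without overlap. This call was lost without Day 1 WT replicate 1 or 2 or Day 1 Bcl3-/- replicate 1 or 3, at -0.65 to -0.59, and in the 3 limma fits on FPKM. On day 3 the order was the other way round, again without overlap, at 4.85, 3.79 and 3.79 CPM in Bcl3-/- libraries and 3.17, 2.58 and 3.24 CPM in WT libraries, but the log2 fold change of 0.47 ± 0.17 (SE, adjusted p = 0.106) did not pass. Smad9 fell over time in WT cultures, at -1.15 ± 0.17 (SE, adjusted p = 0.000267), in 3 of 3 cultures, while in Bcl3-/- cultures the fitted change was -0.00 ± 0.17 (SE, adjusted p = 0.986) and single cultures gave 0.30, -0.38 and 0.05. The difference between the 2 changes was 1.14 ± 0.24 (SE, adjusted p = 0.0469) on the log2 scale. It no longer passed with the cultures as a block (1.14, adjusted p = 0.0798) or in the 3 limma fits on FPKM. It was also lost without any one of 11 of the 12 libraries, the exception being Day 1 WT replicate 3, at 1.01 to 1.31.

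Bambi, which encodes the kinase-less pseudoreceptor, lies on chromosome 18 at 3507923-3516404 (plus strand; ENSMUSG00000024232). It was measured at 15.7, 17.9 and 14.9 CPM in Day 3 Bcl3-/- and 17.4, 19.8 and 18.2 CPM in Day 3 WT libraries, and at 23.7, 22.6 and 24.3 CPM in Day 1 Bcl3-/- and 28.5, 30.9 and 26.3 CPM in Day 1 WT libraries. The genotypes overlapped on day 3 and not on day 1, and neither log2 fold change passed, at -0.18 ± 0.09 (SE, adjusted p = 0.231) on day 3 and -0.28 ± 0.09 (SE, adjusted p = 0.057) on day 1. The day 1 difference passed without Day 1 WT replicate 3 (-0.34) or Day 3 Bcl3-/- replicate 3 (-0.28), and with DESeq2 (-0.28). Bambi fell over time in both genotypes, at -0.54 ± 0.09 (SE, adjusted p = 0.00109) in Bcl3-/- and -0.63 ± 0.09 (SE, adjusted p = 0.000228) in WT cultures, and both falls held under all 22 alternatives. The difference between these changes, 0.10 ± 0.13 (SE, adjusted p = 0.858), was the smallest of the 8.

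Over time in Bcl3-/- cultures, the 4 Id genes rose, Smad6, Smad7 and Bambi fell, and Smad9 did not pass. Of all genes 16.2% were called higher and 17.2% lower in this comparison, against 4 of the 8 members called higher and 3 called lower. The groups did not overlap for 7 of the 8, against 47.2% of all genes. With the cultures as a block, 6 of the 8 were called, without Id1. Without replicate 2 of either Bcl3-/- group 3 of the 8 were called. In WT cultures, Id1, Smad6, Smad7, Smad9 and Bambi fell, Id2, Id3 and Id4 did not pass, and no member was called higher. There 17.9% of all genes were called lower, and the groups did not overlap for 5 of the 8 members, against 48.8% of all genes. These 5 calls held under all 22 alternatives. They also held with the cultures as a block.

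The comparison of the 2 changes over time, Bcl3-/- minus WT, was positive for all 8 members, against 47.5% of all genes. The median of the 8 was 0.71 on the log2 scale, against -0.01 over all genes. Only Id1 and Smad9 were called, both positive, against 0.172% of all genes called in that direction. The values for Id3 (0.71), Smad6 (0.71), Smad7 (0.71), Id4 (0.70) and Id2 (0.65) were alike in size, with adjusted p between 0.163 and 0.256, and 7 of the 8 members had an unadjusted p under 0.05, against 12.0% of all genes. The cultures as a block left 0 of the 8 called, and limma on log2(FPKM + 1) also called 0, whereas DESeq2 called 2. Without Day 1 WT replicate 3 the count was 4, with Smad6 and Smad7 added, and without any one of the 8 libraries named above for Id1 it was 0. It was 1 when replicate 1 or 3 of the Day 3 Bcl3-/- group or replicate 3 of the Day 3 WT group was left out. The genotype and time comparisons share libraries with each other, and this comparison uses all 12, so these values are not separate evidence. Nor are the 8 members separate observations, since some moved together over the libraries, such as Smad6 and Smad7 (Pearson's r of log2 CPM 0.95).

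Of 14 tested genes listed as other BMP-induced targets, 0 were called higher and 5 lower on day 1 in Bcl3-/- libraries, with a median log2 fold change of -0.56 over the list. Over all genes, 9.03% were called higher and 6.26% lower on day 1. The called genes included Nog, which encodes the BMP antagonist noggin (-1.67), Sp7, the osteoblast transcription factor osterix (-0.92), the homeobox gene Msx2 (-0.72) and the transcriptional repressor gene Hes1 (-0.62). On day 3, Atoh8, a helix-loop-helix factor, was called higher (0.76), and Msx2 (-1.32) and the AP-1 gene Junb (-0.66) were called lower. The shares of all genes there were 4.78% higher and 5.6% lower. Over time, 0 rose and 4 fell in Bcl3-/- cultures, among them Junb (-1.88), Msx2 (-0.98), Sp7 (-0.93) and Grem1 (-1.17), whereas 0 rose and 8 fell in WT cultures, among them Sp7 (-2.27), Nog (-2.82), Junb (-1.07) and Hes1 (-0.89). Of all genes, 16.2% rose and 17.2% fell by their calls in Bcl3-/- cultures, and 20.6% and 17.9% in WT cultures. In the comparison of the changes, Nog (2.51), Atoh8 (1.34) and Sp7 (1.34) were called, all in the direction of Id1 and Smad9. In that direction 0.172% of all genes were called. The other 11 genes of the list were not called, and the list median was -0.09, against -0.01 over all genes. All values in parentheses in this paragraph are log2 fold changes.

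Noggin, which binds BMPs outside the cell, gave the largest of these differences. Nog was measured at 2.93, 1.94 and 2.0 CPM in Day 3 Bcl3-/- libraries and 1.13, 0.982 and 1.71 CPM in Day 3 WT libraries, and at 2.53, 2.9 and 3.16 CPM in Day 1 Bcl3-/- libraries and 11.3, 10.2 and 5.91 CPM in Day 1 WT libraries. The Day 1 WT libraries stood above all others, with the third the nearest to them. On day 3 the genotypes did not overlap for Nog, but its log2 fold change of 0.84 (adjusted p = 0.0928) did not pass. Atoh8 was called higher in Bcl3-/- libraries on day 3, at 38.7, 45.7 and 52.1 CPM, against 22.9, 28.4 and 29.1 CPM in Day 3 WT libraries. On day 1 Atoh8 was at 35.1, 39.6 and 41.6 CPM in Bcl3-/- libraries and 70.6, 64.6 and 38.8 CPM in WT libraries, where the third WT library lay within the Bcl3-/- range.

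**Figure D4:**
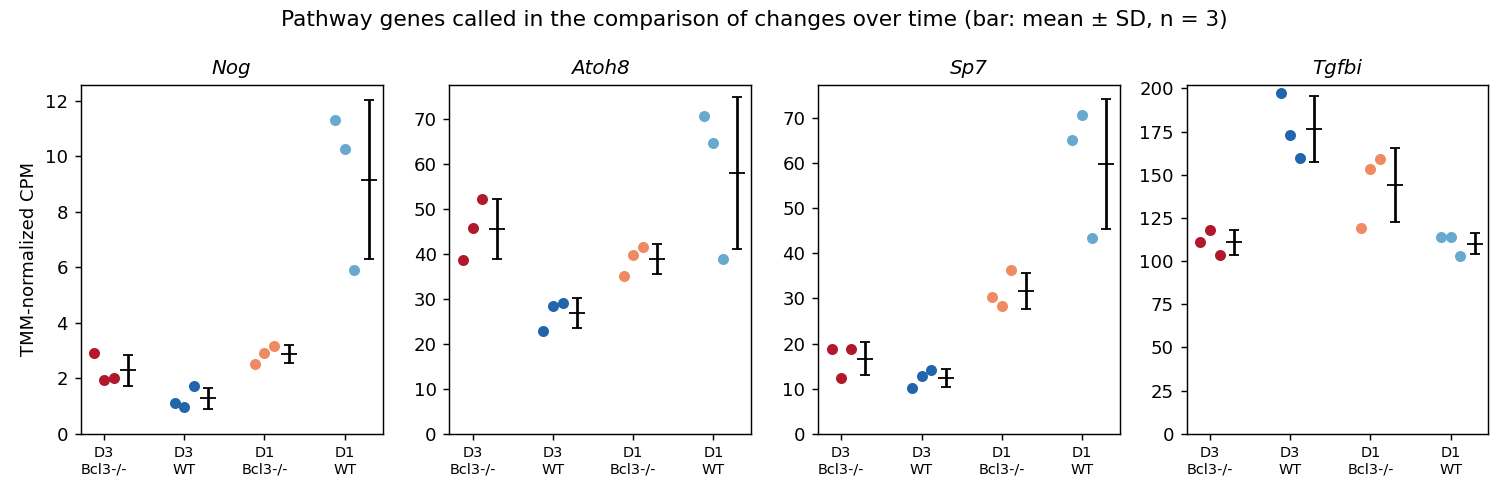
TMM-normalized CPM (y axis, from 0) of Nog, Atoh8, Sp7 and Tgfbi, listed pathway genes called in the comparison of changes over time, in each of the 12 libraries (points) by group on the x axis, with the mean and SD of 3 libraries. By their means, Nog, Atoh8 and Sp7 are highest in Day 1 WT libraries, at 9.15, 58.0 and 59.7 CPM, and Tgfbi is highest in Day 3 WT libraries, at 176.6 CPM.

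Upstream of the SMADs, 5 of the 11 tested genes listed as BMP ligands were called higher and 1 lower on day 1 in Bcl3-/- libraries, with a list median of 0.37 on the log2 scale. Over all genes, 9.03% were called higher and 6.26% lower there. The 11 and their median include Bmp1, which encodes a procollagen-cleaving protease and not a ligand. Bmp1 was not called in any comparison. Bmp2, an osteogenic ligand, had a log2 fold change of 1.60, Bmp3, a ligand that opposes osteogenic BMPs, 1.47 and Gdf10 1.72, and Gdf6, a joint and suture ligand, was lower (-0.95). On day 3, 0 of the 11 were called in either direction by edgeR, against 10.4% of all genes, and 5 had an unadjusted p under 0.05, against 26.7%. Over time, 3 rose and 0 fell in Bcl3-/- cultures, namely Gdf10 (1.40), Bmp2 (0.85) and Bmp4 (0.67), against 16.2% and 17.2% of all genes. In WT cultures 5 rose and 1 fell, against 20.6% and 17.9%, with Gdf10 at 2.23 and Bmp2 at 1.74. The difference between the changes was called for 0 of the 11 by edgeR, with 2 at an unadjusted p under 0.05, against 1.12% and 12.0% of all genes.

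Secreted antagonists were mixed. Of 11 tested, 3 were called higher and 2 lower in Bcl3-/- libraries on day 1, against 9.03% and 6.26% of all genes. There Chrdl1, encoding chordin-like 1, was higher (2.93), as was Chrd, encoding chordin (0.86), and Nog was among the genes called lower. On day 3, Chrdl1 (1.89) and Fst, encoding follistatin (0.49), were called higher and none lower, against 4.78% and 5.6% of all genes. Over time 4 rose and 3 fell in Bcl3-/- cultures, against 16.2% and 17.2% of all genes. In WT cultures 4 rose and 5 fell, against 20.6% and 17.9%. Chrdl1 was at 2.47 in Bcl3-/- and 3.52 in WT cultures. The comparison of the changes called 2 of the 11 higher, Nog among them, and 0 lower, against 0.172% and 0.95% of all genes.

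Of the 11 receptor and co-receptor genes, 3 were called higher and 1 lower on each day in Bcl3-/- libraries. Over all genes, 9.03% were called higher and 6.26% lower on day 1, and 4.78% and 5.6% on day 3. The type II receptor gene Acvr2a had log2 fold changes of 0.93 on day 3 and 1.01 on day 1, the type I receptor gene Acvrl1, encoding ALK1, 0.53 on day 3 and 0.43 on day 1, and Bmpr1b, a type I BMP receptor gene, -0.94 on day 3 and -1.13 on day 1. Over time 3 rose and 1 fell in Bcl3-/- cultures, against 16.2% and 17.2% of all genes. In WT cultures 4 rose and 2 fell, against 20.6% and 17.9%. In the difference between these changes edgeR called 0, with 0 at an unadjusted p under 0.05, against 1.12% and 12.0% of all genes.

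Of the 9 tested SMAD transducers and ubiquitin ligases, only Smurf2 was called on day 1 (log2 fold change -0.61), against 15.3% of all genes. Smurf2 encodes a ubiquitin ligase that Smad7 brings to the receptors. On day 3 edgeR called 0, against 10.4% of all genes, and 0 had an unadjusted p under 0.05, against 26.7%. Smad1 fell over time in Bcl3-/- (-0.24) and WT (-0.33) cultures, and in WT cultures Smurf2 (-0.56) and Rnf111 (-0.37) fell too. Over all genes, 17.2% were called lower over time in Bcl3-/- cultures and 17.9% in WT cultures. Of 8 SMAD corepressors, Skil, which encodes SnoN, was called lower in Bcl3-/- libraries on day 3 (-0.49) and on day 1 (-0.68), with none called higher. Of all genes, 5.6% were called lower on day 3 and 6.26% on day 1.

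TGF-β-induced targets, a list for the parallel branch that shares Skil with the corepressors, were called lower in part. Of 9 tested, 0 were called higher and 6 lower on day 3, against 4.78% and 5.6% of all genes. Among the 6 were Tgfbi (-0.67), the smooth muscle actin gene Acta2 (-0.43) and Pmepa1, an inhibitor of TGF-β signals (-0.52). On day 1 Tgfbi was called higher (0.39) and 4 were called lower, against 9.03% and 6.26% of all genes. The 4 included the connective tissue growth factor gene Ccn2 (-1.18). Over time 0 rose and 7 fell in Bcl3-/- cultures, against 16.2% and 17.2% of all genes. In WT cultures 1 rose and 6 fell, against 20.6% and 17.9%. Tgfbi was the only one of the 9 called in the difference between these changes (-1.06), opposite in sign to Id1 and Smad9. Of all genes, 0.95% were called in that direction. Summed smooth muscle markers, which share Acta2 and Tagln with this list, were 2074 to 2358 CPM in Day 3 Bcl3-/-, 2729 to 3192 CPM in Day 3 WT, 2810 to 2967 CPM in Day 1 Bcl3-/- and 3224 to 3557 CPM in Day 1 WT libraries. Of these 8 markers, 5 were called lower on day 3 and 4 on day 1, against 5.6% and 6.26% of all genes. Their part in these differences was not tested.

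The proteins that ID proteins bind were tested through 8 genes for E proteins and other basic helix-loop-helix factors. On day 3, Twist2 (0.99) and Twist1 (0.46), which hold back osteoblast differentiation through RUNX2, were called higher and Bhlhe40 (-0.41) lower in Bcl3-/- libraries. The shares of all genes were 4.78% higher and 5.6% lower. On day 1, Bhlhe41 was called higher (1.01) and Hes1 lower, against 9.03% and 6.26% of all genes. Over time 1 rose and 0 fell in Bcl3-/- cultures, against 16.2% and 17.2% of all genes. In WT cultures 2 rose and 1 fell, against 20.6% and 17.9%, with Bhlhe41 at 1.73 and Tcf4, an E protein gene, at 0.19. In the difference between these changes edgeR called 0 of the 8, with 2 at an unadjusted p under 0.05, against 1.12% and 12.0% of all genes.

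Other marker lists differed between the groups too. Summed pericyte markers were 120.57 to 146.95 CPM in Day 3 Bcl3-/- and 108.55 to 145.53 CPM in Day 3 WT libraries, and 129.95 to 135.02 CPM in Day 1 Bcl3-/- and 187.47 to 230.25 CPM in Day 1 WT libraries. Cspg4 was the most abundant of them, at 63.8 CPM in Day 3 Bcl3-/- and 92.9 CPM in Day 3 WT libraries and at 104.0 CPM in Day 1 Bcl3-/- and 191.8 CPM in Day 1 WT libraries, and was the 1 marker of 6 called lower on each day (-0.54 on day 3, -0.88 on day 1). On day 3, 3 were called higher, among them Abcc9 (1.65), and on day 1, 2 were, among them Kcnj8 (3.16). Over all genes, 4.78% were called higher and 5.6% lower on day 3, and 9.03% and 6.26% on day 1. Macrophage markers summed to 486.5 to 959.7 CPM in Day 3 Bcl3-/- and 779.8 to 1179 CPM in Day 3 WT libraries, and to 378.3 to 412.2 CPM in Day 1 Bcl3-/- and 330.2 to 527.9 CPM in Day 1 WT libraries. On day 3, 0 of 12 were called higher and 2 lower, Cx3cr1 (-3.29) and Csf1r (-0.90), against 4.78% and 5.6% of all genes. On day 1, 0 were called in either direction, against 9.03% and 6.26%. In the difference between the changes over time Cx3cr1 alone was called (-2.61), against 0.95% of all genes called lower. Over time 9 of 12 rose and 1 fell in Bcl3-/- cultures, against 16.2% and 17.2% of all genes. In WT cultures 10 of 12 rose, against 20.6%. Chondrocyte markers ranged from 777.4 to 2483 CPM within the Day 1 WT libraries. Markers of skeletal muscle (7.15 to 23.8 CPM), of adipocytes (7.24 to 19.5 CPM, with Lep and Cidec at 0 in every library) and of neural cells (12.98 to 25.4 CPM) were low throughout. Adipocyte markers summed to 13.9 to 19.5 CPM in Day 3 Bcl3-/- and 7.24 to 7.83 CPM in Day 3 WT libraries. Of the 2 tested, Pparg was called higher on day 3 (1.10), against 4.78% of all genes. Pparg rose over time in Bcl3-/- cultures (0.72) and was not called in WT cultures. The neural marker S100b (0.80) and the muscle marker Mylpf (1.25) were called higher on day 1. Tubb3 was lower on day 3 (-0.78) and Chrna1 on both days (-0.86 on day 3, -1.51 on day 1). The part of these cells in the members' differences was not tested.

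Among themselves, the members were alike to differing degrees over the 12 libraries. Pearson's r of log2 CPM was 0.95 between Smad6 and Smad7, 0.87 between Smad6 and Smad9, 0.85 between Smad7 and Bambi and 0.84 between Smad6 and Bambi. It was 0.86 between Id2 and Id3 and 0.78 between Id1 and Id3, but 0.28 between Id1 and Id4 and -0.60 between Id2 and Bambi. For Id1 it was 0.51 with Smad6 and 0.68 with Smad9. These values describe 12 libraries that share groups and cultures.

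The genes whose log2 CPM followed a member most closely over the 12 libraries were taken from 11983 genes compared, and Mrps9 was among them for both Id2 and Id3. Smad9 was closest to Nog (r = 0.96), followed by Jade1 (0.93) and Naf1 (0.92). Id1 was closest to Pdrg1 (0.90), the osteoblast and chondrocyte pannexin gene Panx3 (0.90) and Zbtb25 (0.85). Id2 was closest to Marcksl1 (0.97), Mrps9 (0.91) and Borcs8 (0.91). Mrps9, which encodes a mitochondrial ribosomal protein, was also the closest to Id3 (0.89), before Oxld1 (0.86) and Mettl5 (0.85). Id4 was closest to Lzts2 (0.96), Itsn1 (0.95) and Iqsec1 (0.95). For Smad6 they were Ppp1r10 (0.98), Sdk2 (0.96) and Nrp1 (0.96), for Smad7 Spop (0.98), Bdp1 (0.98) and Cnot9 (0.98), and for Bambi Nop56 (0.99) and Serbp1 (0.99) were among them.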

How the data were processed

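RNA of 12 calvarial osteoblast libraries in 4 groups of 3 was made into complementary DNA with the SMART-seq v4 kit and sequenced. The authors deposited unnormalized counts for 49585 genes. Reads outside genes, 12.3 to 14.7% per library in 5 extra entries, were not used. FPKM, which the authors scaled to transcript length and depth, were used for 49318 genes, without 49 entries of several values and 1 stray header. The submitters' processing notes name Trim Galore, TopHat2, HTSeq, Cufflinks, DESeq2 and GRCm38. Tool versions and the strand setting of HTSeq are not given in the sources used here. GENCODE M21 gave gene names and positions, and RefSeq (GRCm38.p6) the promoters. Each of the 66 library pairs differed beyond sampling noise (chi-square per gene of at least 9.4).

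Genes kept by filterByExpr (16318) were normalized by TMM (factors 0.951 to 1.05) and fitted in one edgeR quasi-likelihood model with 4 groups, with Benjamini-Hochberg adjustment over all of them, tested on simulated data. The biological coefficient of variation was 13.5%, and log2 CPM used a prior count of 2. The culture codes in the labels pair the days. Deviations of the same culture from its group means correlated at 0.243 to 0.327 in WT and at -0.157 to -0.0168 in Bcl3-/- cultures, so a block by culture was tried for the changes over time.

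The 8 members and all gene lists were chosen with earlier results of these data known. Named are the 8 members, Bcl3, up to 4 called genes with the smallest adjusted p per pathway list and comparison (BMP ligands, antagonists, receptors, SMAD transducers, corepressors, other BMP-induced targets, TGF-β-induced targets, E proteins and partners), up to 2 called genes of each marker list and its markers at 0, and the 3 genes most like each member among those averaging 1 log2 CPM or more. A few genes selected in this way are not reported here. Pecam1, Cdh5, Vwf, Egfl7, Erg, Kdr, Esam, Col1a1, Dmp1 and, on day 1, Tgfbi were named after their values were seen. Alternatives were DESeq2, upper-quartile or RLE scaling, dropping the count filter or asking for 1 CPM in 6 libraries, fitting the 6 compared libraries alone, limma on log2(FPKM + 0.1) or on log2(FPKM + 1), the second also where 3 libraries reached an FPKM of 1, replicate blocks, an absolute log2 fold change over 1 and leaving out each library. Tests ran in R 4.3.3 (DESeq2 1.42.0, limma 3.58.1, edgeR 4.0.16) and tables and plots in Python 3.11.15 (pandas 2.3.3, matplotlib 3.10.9, numpy 2.4.6).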

Additional observations from a re-analysis of the deposited data

Results flagged for a closer look

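The change of Id1 over time differed between the genotypes by the test of the difference itself: the change in Bcl3-/- cultures minus that in WT cultures was 1.29 on the log2 scale (adjusted p = 0.0335, edgeR, all 16318 genes), with a rise in 3 of 3 Bcl3-/- cultures and a fall in 3 of 3 WT cultures. The same difference for Smad9 was 1.14 (adjusted p = 0.0469), with a fall in 3 of 3 WT cultures and both signs among the Bcl3-/- cultures. Both calls are lost with the cultures as a block (adjusted p = 0.0666 for Id1 and 0.0798 for Smad9), and as single libraries are left out: that of Id1 without any one of 8 libraries (adjusted p of 0.0664 to 0.125; the exceptions are Day 3 Bcl3-/- replicates 1 and 3, Day 3 WT replicate 3 and Day 1 WT replicate 3), and that of Smad9 without any one of 11 libraries (0.0622 to 0.143; the exception is Day 1 WT replicate 3).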

How the results depend on the processing

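Of 896 alternative values of the members' log2 fold changes, 779 kept their direction and side of the threshold, 84 lost a call, 18 gained one and 15 turned in sign, and none of the 15 turned a called value. The calls of Id4 on day 3, of Id2 and Bambi over time in Bcl3-/- cultures and of the 5 members over time in WT cultures were kept under every alternative, apart from the threshold on fold size. The number of members called on day 1 was 2, against 5 with DESeq2, 4 without a count filter and 0 in each of the 3 fits on FPKM and at an absolute log2 fold change over 1, and it ran from 0 to 5 as single libraries were left out. On day 3 it was 3, against 1 at an absolute log2 fold change over 1, 1 on log2(FPKM + 1) and 1 on log2(FPKM + 0.1), and 1 to 4 as single libraries were left out. Over time it was 7 in Bcl3-/- cultures, against 0 at a log2 fold change over 1, 3 in each fit on FPKM and 3 to 7 as libraries were left out, and 5 in WT cultures, against 3 at a log2 fold change over 1 and 5 to 5 as libraries were left out. For the difference between the changes it was 2, against 4 without a count filter, 0 in each fit on FPKM, 0 with a replicate block by culture, 0 with a replicate block by title number and 0 to 4 as libraries were left out. Over all genes, 2494 were called on day 1 (722 at a log2 fold change over 1, 1437 and 1494 on FPKM with 1 and 0.1 added, 1253 to 2905 as libraries were left out), 1693 on day 3 (503, 1030 and 978, 814 in the 6 libraries alone, 698 to 1879), 5454 over time in Bcl3-/- (1462) and 6285 in WT cultures (1573), and 183 in the difference (462 with DESeq2, 552 without a count filter, 5 and 4 on FPKM, 292 with the block by culture, 1 to 475). The cause of these differences was not tested.

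Title numbers pair no samples between genotypes, since the culture codes differ between them. Same-numbered libraries of the 2 genotypes deviated together at -0.0646 to 0.0443 on day 1 and 0.0575 to 0.214 on day 3. These correlations cannot decide pairing, because libraries of the same Bcl3-/- culture gave only -0.157 to -0.0168. The block by title number lost Id2 on day 3 (0.56, adjusted p = 0.0525) besides the difference between changes for Id1 (1.26, adjusted p = 0.0547) and Smad9 (1.13, adjusted p = 0.0694). The block by culture changed no call over time other than those of Id1 in Bcl3-/- cultures and of Id1 and Smad9 in the difference, and as a random effect it added Bambi on day 1 (-0.28).

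The signs that turned belong to values near 0. Smad9 over time in Bcl3-/- cultures was 0.0039 with DESeq2, 0.000417 with RLE, 0.015 with upper-quartile normalization, 0.017 with at least 1 CPM, and as libraries were left out lay between -0.14 and 0.14. Smad7 on day 3 lay between -0.10 and 0.17, Id2 on day 1 between -0.21 and 0.0050 and Id4 over time in WT cultures between -0.25 and 0.040 as libraries were left out. Depth limits Smad9 most, at 72 to 318 counts per library.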
